A study of Mus musculus with 10 samples.

Results

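Peroxisomes carry out oxidations that other organelles cannot, and 38 genes for their assembly and their enzymes were measured in reactive cholangiocytes from mouse livers with Smad4 deleted. The genes were taken by symbol from the normalized counts of the series. They comprise 13 Pex genes of peroxisome biogenesis, 21 enzymes of the peroxisomal matrix and 4 proteins of the peroxisomal membrane. All 38 were found among the 49568 genes of the table, and all 38 were tested, as were all 14870 genes whose normalized count averaged at least 10 over the mice.

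Reactive cholangiocytes, epithelial cells of the bile ducts that expand after liver injury, were compared between 5 Smad4del mice and 5 Ctl mice (1 sample per mouse). Smad4del mice were Smad4 fl/fl with Alb-Cre, and their titles call them floxed. Ctl mice are titled WT with the genotype Smad4wt/wt, and the study's methods describe them as mice without Alb-Cre. All mice had eaten a diet with 0.1% DDC, a compound that plugs bile ducts with porphyrin, for 2 weeks, and all were of mixed genetic background. Alb-Cre, driven by the albumin promoter, is active in the hepatocyte and biliary lineages from fetal life, so the hepatocytes around the sorted cells were also a target of the deletion. By the methods the cohorts differed in Cre as well as in Smad4, and these cannot be told apart. The labels give no age, sex, litter or batch. They also carry a cell line tag and a culture protocol, whereas the methods and the treatment label describe cells sorted from digested livers as EPCAM+/CD45-/TER119-/TO-PRO-3-.

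Peroxisomes have no DNA, so each of their proteins is made in the cytosol and imported. The receptor PEX5 binds a short targeting signal at the carboxyl end of most matrix enzymes, PEX7 binds a signal near the amino end of a few, and both deliver their cargo to a docking complex in the peroxisomal membrane. Inside, the enzymes shorten very long and branched fatty acids and the side chain of bile acid precursors, start the synthesis of ether lipids, and break down the hydrogen peroxide that their oxidases release. In rodent liver, agonists of the nuclear receptor PPARA raise many of these enzymes and multiply the peroxisomes themselves.

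The reads on genes numbered 16734672 to 19710560 in Smad4del mice and 16249719 to 21277339 in Ctl mice. Smad4, the deleted gene on mouse chromosome 18, had 687 to 1031 normalized counts in Smad4del mice against 2969 to 3714 in Ctl mice (log2 fold change -1.96, limma adjusted p = 1.09e-05), counted over the whole gene and not over the deleted part alone. The sorted cells carried their defining transcripts, with Spp1 at 409022 to 530196 in Smad4del mice and 280899 to 417243 in Ctl mice, and Epcam at 24052 to 28441 in Smad4del mice and 16857 to 25559 in Ctl mice. Of 23 cholangiocyte markers, 5 were higher and 1 lower by limma, where 2.43% and 4.69% of all tested genes were. A log2 fold change above 0 was found for 19 of them (82.6%, where 49.4% of all tested genes did), with a median of 0.28. At an unadjusted p under 0.05, 12 were higher (12.3% of all tested genes) and 2 lower (15.1%). Their mean log2 level differed by 0.17 (Smad4del minus Ctl), with overlap of the cohorts. Markers of other liver cells were also present. The mean log2 level of 18 endothelial markers was 8.95 to 10.0 in Smad4del mice and 10.4 to 11.8 in Ctl mice, without overlap, and 16 of the 18 were lower by limma. The level of 18 macrophage markers was 6.73 to 11.4 in Smad4del mice and 8.58 to 13.5 in Ctl mice. All 18 had a log2 fold change below 0 (median -2.43), 1 was called lower by limma and 17 were lower at an unadjusted p under 0.05. That of 12 stellate cell and fibroblast markers was 8.70 to 9.23 in Smad4del mice and 9.39 to 11.0 in Ctl mice, and 3 of the 12 were called lower. The level of 26 hepatocyte markers, cells that are rich in peroxisomes, overlapped widely at 9.20 to 10.3 in Smad4del mice and 9.16 to 10.47 in Ctl mice. Their summed normalized counts were 103114 to 152396 in Smad4del mice and 94165 to 134201 in Ctl mice. Gc alone held 37892 to 44461 of these in Smad4del mice and 33447 to 57913 in Ctl mice (log2 fold change -0.22, limma adjusted p = 0.329). None of the 26 passed limma's test as higher, and 1, Hamp, was lower (log2 fold change -6.42). Hamp is part of the level, whose cohort means differed by -0.09 (Smad4del minus Ctl). Of the 26, 15 had a log2 fold change above 0 (57.7%, where 49.4% of all tested genes did), with a median of 0.12. At an unadjusted p under 0.05, 5 were higher: Alb, Ttr, Ass1, Tat and Pck1, with Smad4del means 1.62, 1.65, 2.27, 1.81 and 2.80 times those of Ctl mice (adjusted p = 0.0516 for Ttr and 0.0690 for Pck1). Cyp7a1, the bile acid synthesis enzyme of hepatocytes, was at 0 in all 5 Smad4del mice. Its median was also 0 in Ctl mice, where it reached 152 in A5626 (limma adjusted p = 0.349). Mup3, a major urinary protein of hepatocytes, averaged 46.6 in Smad4del mice and 9.10 in Ctl mice (adjusted p = 0.339). It was at 0 in 1 mouse of each cohort. The methods name littermates as controls where possible, but the labels give no litters, so p-values measure the spread between these mice. In bulk RNA, fewer cells of a type and less RNA per cell cannot be told apart.

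Most peroxisomal transcripts had positive log2 fold changes, and few passed the test. Of the 38 genes, 29 had a log2 fold change (Smad4del minus Ctl) above 0, where 49.4% of all tested genes did, and their median was 0.18 against -0.0050 over all tested genes. The cholangiocyte markers also lay mostly above 0 (19 of 23, median 0.28), so a positive shift was not particular to peroxisomal genes. Limma called 4 of the 38 higher at an adjusted p under 0.05, where 2.43% of all tested genes were called higher, and 0 lower, where 4.69% were. The 4 were Hao1, Crot and Acox2 among the matrix enzymes and Pex11g among the biogenesis genes. At an unadjusted p under 0.05, 15 members were higher (12.3% of all tested genes) and 2, Pex3 and Far1, were lower (15.1% of all tested genes). The same 4 members were higher in every Smad4del mouse than in any Ctl mouse (3.5% of all tested genes), and 1, Far1, was lower in every one (4.59% of all tested genes). With DESeq2 on recovered reads, 12 members were higher (6.03% of the genes it tested) and 1 lower (8.72%), and without Smad4del mouse A5217, 4 were higher (3.06%) and 1 lower (6.46%). EdgeR's quasi-likelihood test on the reads of all 10 mice called 3 members, Hao1, Crot and Acox2, higher (2.1%) and 0 lower (4.02%). By that test 16 members were higher and 2 lower at an unadjusted p under 0.05, for which no share over all genes was counted.

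**Figure D1:**
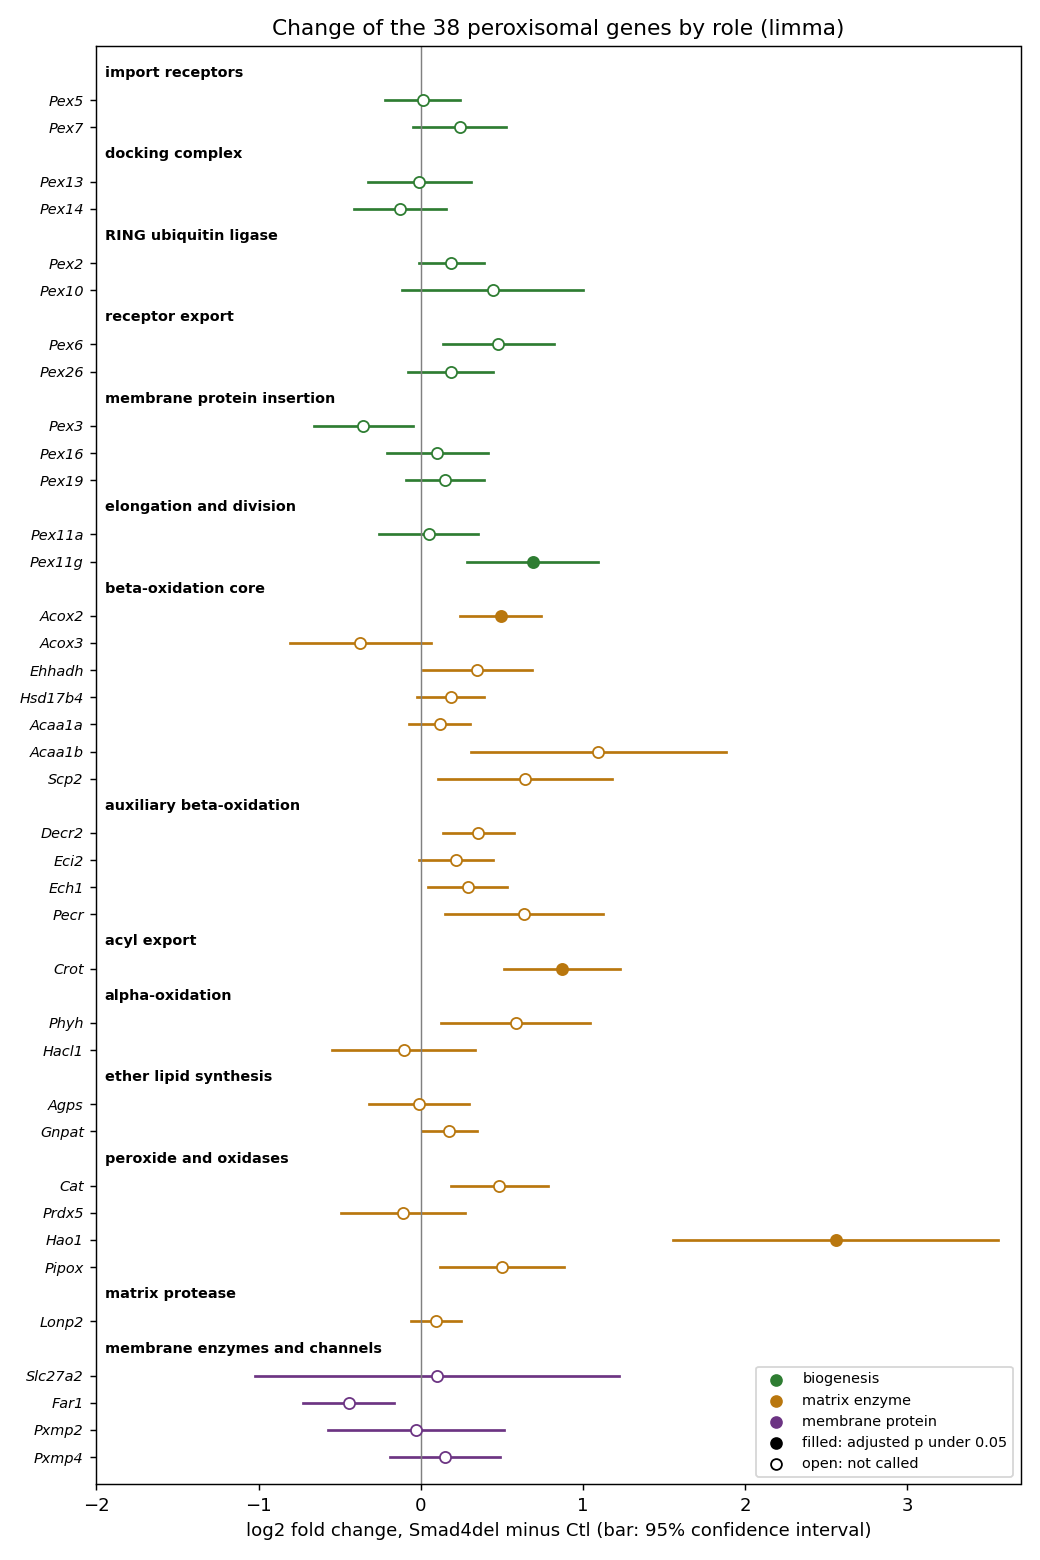
Log2 fold change (x axis, Smad4del minus Ctl, limma on log2(normalized count + 1)) of each of the 38 genes (y axis), grouped by role. Bars are 95% confidence intervals, filled points are genes with an adjusted p under 0.05 and open points are not called; Hao1 at 2.56 lies far to the right of the rest, which span -0.45 (Far1) to 1.10 (Acaa1b).

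None of the import receptors and docking proteins passed the test. Pex5, the receptor for the carboxyl-end signal, had 1048 to 1469 normalized counts in Smad4del mice and 1146 to 1292 in Ctl mice (log2 fold change 0.01, 95% confidence interval -0.22 to 0.24, limma adjusted p = 0.962). Pex7, the receptor for the amino-end signal, had 661 to 1015 in Smad4del mice and 667 to 837 in Ctl mice (log2 fold change 0.24, adjusted p = 0.257). In the docking complex, the log2 fold change was -0.01 for Pex13 (adjusted p = 0.978) and -0.13 for Pex14 (adjusted p = 0.557). The cohorts overlapped for each of these 4 genes.

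The genes that recycle the receptor had log2 fold changes above 0, none of them called by limma. With the endothelial marker level, which separated the cohorts without overlap, as a covariate those of Pex10 (-0.14) and Pex26 (-0.03) were below 0. Pex2 and Pex10 encode RING proteins that ubiquitinate the receptor at the membrane, and Pex6 encodes an ATPase, held at the membrane by the product of Pex26, that pulls it back out. Pex6 had 982, 1041, 1159, 1231 and 1576 normalized counts in Smad4del mice against 646, 809, 858, 889 and 1092 in Ctl mice. The Ctl mouse A5219 at 1092 lay among the Smad4del mice, and the other 4 Ctl mice lay below all of them. The log2 fold change of Pex6 was 0.48 (standard error 0.157) and did not pass limma's test (adjusted p = 0.0803), while DESeq2 on 10 mice called it (adjusted p = 0.0385) and without A5217 did not (adjusted p = 0.0827). Log2 fold changes were 0.44 for Pex10 (adjusted p = 0.280), 0.19 for Pex2 (adjusted p = 0.205) and 0.18 for Pex26 (adjusted p = 0.337).

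Pex3, Pex16 and Pex19 insert proteins into the peroxisomal membrane and are needed for peroxisomes to exist at all. Pex3, the membrane anchor, had 405, 462, 509, 615 and 626 normalized counts in Smad4del mice against 581, 623, 654, 719 and 737 in Ctl mice. It had the lowest log2 fold change of the Pex genes at -0.35 (standard error 0.140, limma adjusted p = 0.133), and 3 of 5 Smad4del mice lay below every Ctl mouse. Pex16 (0.10, adjusted p = 0.675) and Pex19 (0.15, adjusted p = 0.405), the soluble carrier of membrane proteins, had log2 fold changes near the median of the 38. The annotated gene of Pex3 overlaps Adat2 on the other strand, and the kit does not mark strand, so reads from the shared stretch cannot be told apart.

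Of the PEX11 family, which elongates peroxisomes ahead of their division, Pex11g was higher in Smad4del cells and Pex11a was not called. Pex11g (chr8:3457105-3467680, GRCm38) had 188, 203, 218, 239 and 256 normalized counts in Smad4del mice against 107, 121, 131, 150 and 178 in Ctl mice. Every Smad4del mouse lay above every Ctl mouse. The means were 220 ± 27.1 in Smad4del cells and 138 ± 27.7 in Ctl cells (SD, n = 5 each), a log2 fold change of 0.69 (standard error 0.186, limma adjusted p = 0.0458). The exact permutation test over mice gave p = 0.00794, the smallest that 5 mice against 5 allow. This call was close to the threshold: it was kept when Ctl mouse A5215 or A5219 was left out and was lost when any of the other 8 mice was, with adjusted p = 0.0373 to 0.108. Pex11a had 326 to 467 in Smad4del mice and 296 to 404 in Ctl mice (log2 fold change 0.05, adjusted p = 0.855). An unclassified transcript, Gm44775, overlaps Pex11g on the other strand.

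The matrix enzymes had the largest median log2 fold change of the 3 classes. Of 21, 17 had a log2 fold change above 0 and limma called 3 higher, where 49.4% and 2.43% of all tested genes were. At an unadjusted limma p under 0.05, 13 were higher and 0 lower, where 12.3% and 15.1% of all tested genes were. The same shares stand beside the counts of the other classes that follow. The median log2 fold change was 0.35 for the matrix enzymes, 0.15 for the 13 biogenesis genes (10 above 0, 1 called, 2 higher and 1 lower at an unadjusted p under 0.05) and 0.04 for the 4 membrane proteins (2 above 0, 0 called and 1 lower at an unadjusted p under 0.05). The matrix enzymes are shown here by the end of their coding sequence, because in most of them the last 3 codons before the stop encode the signal that PEX5 reads. The lines give the last 24 bases of the coding sequence, 5′ to 3′, from GENCODE M21 transcripts on GRCm38, with those 3 codons in capitals and the stop codon after them. The first 3 enzymes are the called ones, Cat is the most abundant per length, Ehhadh carries codons for serine, lysine and leucine, and the thiolases Acaa1a and Acaa1b use PEX7 instead.
Hao1: cctttggctgttTCCAAGATCtga
Crot: ctgatgaacaccGCTCATCTTtag
Acox2: caaagctggaaaCCCAAGCTGtga
Cat: gcgaagggaaaaGCTAACCTGtaa
Ehhadh: ggaccccatagcAGCAAACTGtga
Acaa1a: gtctttgaatacCCTGGGAACtga
Acaa1b: gtctttgaatacCCTGGGAACtga
The strict form of the signal was taken as codons for serine, alanine or cysteine, then lysine, arginine or histidine, then leucine or methionine. Of 20 matrix enzymes examined, 9 ended in this form (3 of them, Ehhadh, Ech1 and Lonp2, in serine, lysine and leucine) and 11 did not, and Hsd17b4 was not included. The 11 include Acaa1a and Acaa1b, which use PEX7, and the receptor that imports each of the others was not tested. Of the 9, 9 had a log2 fold change above 0, 1 (Crot) was called and the median was 0.35. Of the 11, 7 were above 0, 2 (Hao1 and Acox2) were called and the median was 0.22. The called enzymes therefore stand in both groups.

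Hao1 had the largest log2 fold change of the 38. It encodes glycolate oxidase, an enzyme of the hepatocyte peroxisome that turns glycolate into glyoxylate and releases hydrogen peroxide, and lies at chr2:134497361-134554368. Smad4del mice had 93.0, 209, 231, 302 and 466 normalized counts, against 16.3, 32.4, 39.2, 54.4 and 69.6 in Ctl mice. The cohorts did not overlap, and within the Smad4del cohort mouse A5447 was lowest and A5217 highest. The mean was 260 ± 137 in Smad4del cells and 42.4 ± 20.5 in Ctl cells (SD, n = 5 each), 6.14-fold higher. The log2 fold change was 2.56 (standard error 0.460, 95% confidence interval 1.56 to 3.56, limma adjusted p = 0.0085), and the call held without any single mouse. Alb, which encodes albumin of hepatocytes, was at 16700 to 44417 normalized counts in Smad4del mice and 12200 to 27690 in Ctl mice (adjusted p = 0.143). With the hepatocyte marker level as a covariate the log2 fold change of Hao1 was 2.60. That level includes Hamp (log2 fold change -6.42), and a level without Hamp was not tested.

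Crot encodes carnitine octanoyltransferase, which loads shortened acyl chains onto carnitine so that they can leave for the mitochondrion. At chr5:8966033-8997324 it had 7205, 9151, 9593, 9977 and 11539 normalized counts in Smad4del mice against 4161, 4175, 4712, 6278 and 6880 in Ctl mice. All Smad4del mice lay above all Ctl mice, with A5447 again the lowest of its cohort. The mean was 9493 ± 1564 in Smad4del cells and 5241 ± 1259 in Ctl cells (SD, n = 5 each), 1.81-fold higher (log2 fold change 0.87, standard error 0.164, limma adjusted p = 0.0107). This call also held without any single mouse. A processed pseudogene, Gm15610, lies over Crot on the other strand, and reads from shared stretches cannot be told apart.

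**Figure D2:**
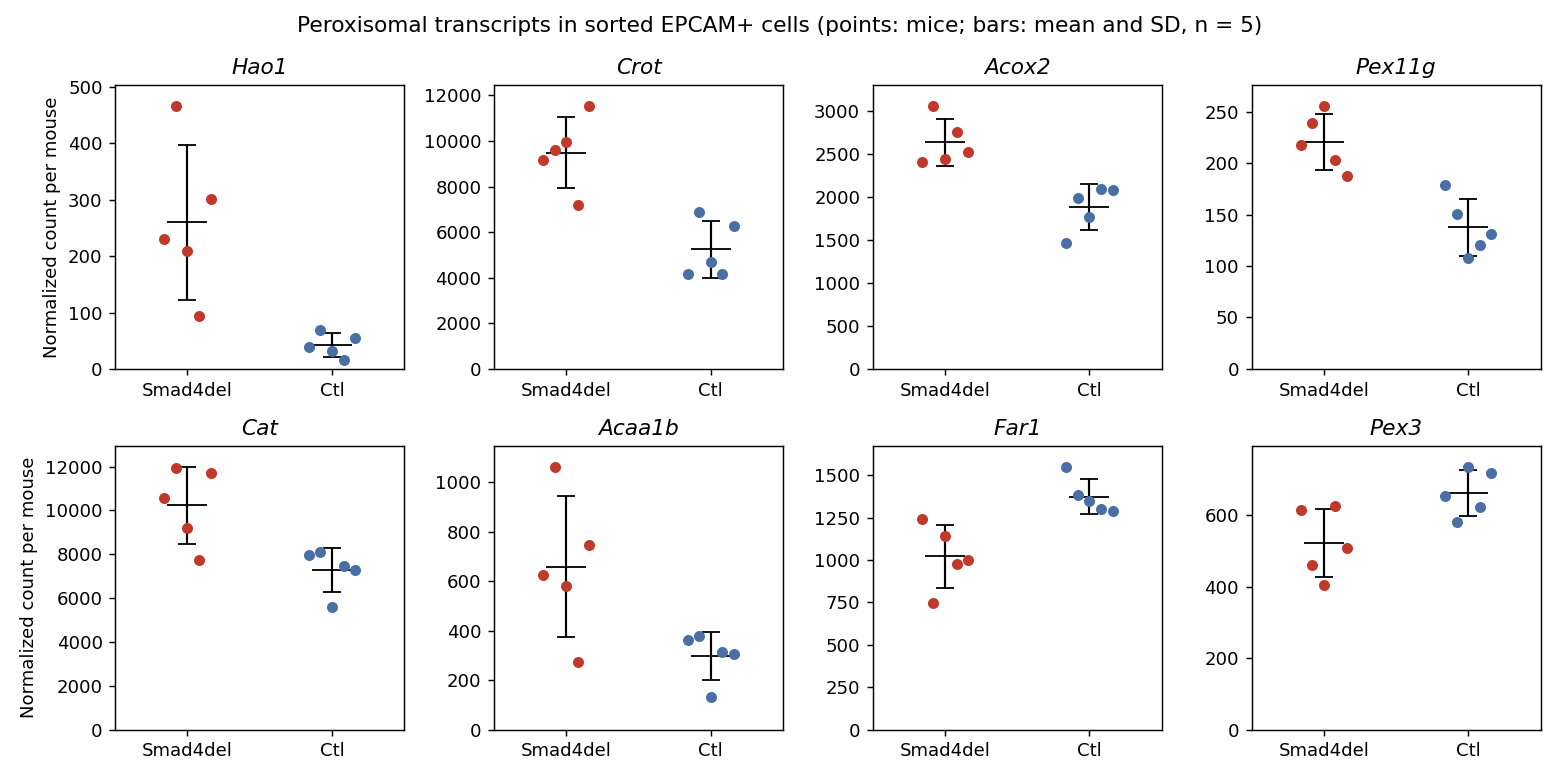
Normalized counts (y axis, from 0) of 8 peroxisomal genes in each of 5 Smad4del and 5 Ctl mice (points), with the mean and SD of each cohort. The cohorts do not overlap for Hao1, Crot, Acox2 and Pex11g, which are higher in Smad4del mice, or for Far1, which has its 5 Smad4del values of 748 to 1242 below the Ctl values of 1287 to 1551; Cat, Acaa1b and Pex3 overlap.

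The acyl-CoA oxidases, which catalyse the first step of each round of peroxisomal beta-oxidation and make hydrogen peroxide, included Acox2, which was called higher, and Acox3, which was not called. Acox2, the oxidase of branched chains and bile acid precursors (chr14:8225511-8259353), had 2399, 2434, 2517, 2756 and 3053 normalized counts in Smad4del mice against 1462, 1765, 1988, 2079 and 2092 in Ctl mice. No Ctl mouse reached the lowest Smad4del mouse. Its mean was 2632 ± 273 in Smad4del cells and 1877 ± 267 in Ctl cells (SD, n = 5 each), 1.40-fold higher (log2 fold change 0.49, standard error 0.114, limma adjusted p = 0.0261). The call was lost without Smad4del mouse A5217 or without Ctl mouse A5221, with adjusted p of at most 0.0703. Acox3, another oxidase of branched chains, had 488 to 737 in Smad4del mice and 524 to 1119 in Ctl mice (log2 fold change -0.37, 95% confidence interval -0.81 to 0.06, adjusted p = 0.250).

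The genes of the later steps of beta-oxidation had log2 fold changes above 0, none of them called by limma. DESeq2 on 10 mice called Acaa1b (adjusted p = 0.00959) and Scp2 (adjusted p = 0.0174) higher, and without A5217 it called neither (adjusted p = 0.0693 and 0.102). With the endothelial marker level as a covariate the log2 fold change of Acaa1a was -0.04. The bifunctional enzymes that hydrate and then oxidize the chain were Ehhadh (0.35, limma adjusted p = 0.167) and Hsd17b4 (0.18, adjusted p = 0.228). Among the thiolases, which cut off the shortened chain, Acaa1b had 274, 581, 627, 747 and 1063 normalized counts in Smad4del mice against 133, 305, 315, 363 and 379 in Ctl mice. All but A5447 of the Smad4del mice lay above every Ctl mouse. The mean of Acaa1b was 659 ± 286 in Smad4del cells and 299 ± 97.8 in Ctl cells (SD, n = 5 each), a log2 fold change of 1.10 (standard error 0.36, adjusted p = 0.0815). Its near-identical copy Acaa1a, whose printed coding end is the same, had 1650 to 2180 in Smad4del mice and 1630 to 1828 in Ctl mice (log2 fold change 0.12, adjusted p = 0.411). The sources used here leave unsaid whether multi-mapping reads were counted, so the split of reads between these copies is uncertain. Scp2, which encodes a thiolase for branched chains and a sterol carrier, had 2730, 4183, 5891, 6245 and 8237 in Smad4del mice against 2588, 3007, 3549, 3568 and 3749 in Ctl mice. Again A5447 alone of the Smad4del mice lay within the Ctl range (log2 fold change 0.65, standard error 0.246, adjusted p = 0.120). The processed copy Scp2-ps2 held at most 29.0 normalized counts in any mouse.

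Enzymes that prepare unsaturated chains for the cycle also had log2 fold changes above 0, none of them called by limma. DESeq2 on 10 mice called Decr2 (adjusted p = 0.0169) and Pecr (adjusted p = 0.0345) higher, and without A5217 it called neither (adjusted p = 0.0621 and 0.144). With the endothelial marker level as a covariate the log2 fold change of Ech1 was -0.16. Decr2, a dienoyl-CoA reductase, had 1365, 1554, 1624, 1628 and 1748 normalized counts in Smad4del mice against 1060, 1160, 1278, 1290 and 1414 in Ctl mice. All Smad4del mice but A5447 lay above the highest Ctl mouse, and the log2 fold change of 0.35 (standard error 0.101) just missed the threshold (limma adjusted p = 0.0543), with calls under 6 of the 25 alternatives. Pecr, an enoyl-CoA reductase, had 284 to 663 in Smad4del mice and 214 to 356 in Ctl mice (log2 fold change 0.64, adjusted p = 0.0988). The isomerases Ech1 (0.29, adjusted p = 0.122) and Eci2 (0.22, adjusted p = 0.204) had smaller log2 fold changes. In alpha-oxidation, which removes a single carbon from phytanic acid, Phyh, the hydroxylase, had 2291 to 5341 in Smad4del mice and 1809 to 2804 in Ctl mice (log2 fold change 0.59, limma adjusted p = 0.103, DESeq2 adjusted p = 0.0240 on 10 mice and 0.121 without A5217), while Hacl1, the lyase, had 309 to 523 in Smad4del mice and 268 to 541 in Ctl mice (log2 fold change -0.11, adjusted p = 0.769).

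Cat, which encodes catalase, was the most abundant of the 38 per length of exon in both cohorts. It had 7736, 9211, 10555, 11729 and 11922 normalized counts in Smad4del mice against 5583, 7293, 7445, 7978 and 8117 in Ctl mice. Only A5447 of the Smad4del mice fell within the Ctl range. The mean was 10231 ± 1766 in Smad4del cells and 7283 ± 1012 in Ctl cells (SD, n = 5 each), a log2 fold change of 0.48 (standard error 0.137, limma adjusted p = 0.0540). Catalase was called under 8 of the 25 alternatives tried, among them DESeq2 (adjusted p = 0.00757) and DESeq2 without A5217 (adjusted p = 0.0432), within a range of adjusted p from 0.00757 to 0.997. Pipox, the oxidase of pipecolic acid and sarcosine, had 774 to 1381 in Smad4del mice and 500 to 846 in Ctl mice (log2 fold change 0.50, limma adjusted p = 0.0961, DESeq2 adjusted p = 0.0466 on 10 mice and 0.178 without A5217). The log2 fold change was -0.11 for Prdx5 (adjusted p = 0.725), a peroxiredoxin that also resides in mitochondria and cytosol and whose annotated gene overlaps Trmt112 on the other strand. Lonp2, the protease of the matrix, had 2144 to 2575 in Smad4del mice and 2065 to 2224 in Ctl mice (log2 fold change 0.09, 95% confidence interval -0.06 to 0.25, adjusted p = 0.414).

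None of the genes of ether lipid synthesis passed limma's test, and Far1 came nearest. Far1 encodes the membrane-bound reductase that makes the fatty alcohol for these lipids and is their rate-limiting enzyme. It had 748, 976, 1001, 1141 and 1242 normalized counts in Smad4del mice against 1287, 1303, 1349, 1384 and 1551 in Ctl mice, and every Smad4del mouse lay below every Ctl mouse. The mean was 1022 ± 187 in Smad4del cells and 1375 ± 106 in Ctl cells (SD, n = 5 each), a log2 fold change of -0.45 (standard error 0.129), which missed limma's threshold (adjusted p = 0.0575). The exact permutation test over mice gave p = 0.00794. DESeq2 called Far1 lower with and without A5217 (adjusted p = 0.0230 and 0.0499), and over 25 alternatives its adjusted p ran from 0.0230 to 0.997, with 3 calls. An antisense transcript, Far1os, overlaps it, and its reads cannot be told apart. For Gnpat, which encodes the acyltransferase of the first step, the log2 fold change was 0.18 (95% confidence interval 0.01 to 0.34, adjusted p = 0.167), and for Agps, whose product exchanges the acyl chain for the alcohol, it was -0.01 (adjusted p = 0.969). The other membrane proteins did not pass: the acyl-CoA synthetase Slc27a2 (0.10, adjusted p = 0.923), the channel Pxmp2 (-0.03, adjusted p = 0.957) and Pxmp4 (0.15, adjusted p = 0.561). Slc27a2 varied most between mice of 1 cohort, from 26.4 to 140 in Smad4del mice and from 34.2 to 160 in Ctl mice, so its interval ran from -1.02 to 1.22.

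Averaged over the genes of a class, the difference between the cohorts was 0.43 for the matrix enzymes and 0.16 for the biogenesis genes on the log2 scale. The mean log2 level of the 21 matrix enzymes was 10.75, 10.95, 10.65, 10.32 and 10.77 in Smad4del mice A5216, A5217, A5218, A5447 and A5624, against 10.33, 10.36, 10.02, 10.25 and 10.33 in Ctl mice A5215, A5219, A5221, A5626 and A5628. All Smad4del mice but A5447 lay above the Ctl mice. The mean log2 level of the 13 biogenesis genes was 9.19 to 9.43 in Smad4del mice and 9.08 to 9.20 in Ctl mice, with A5216 and A5447 within the Ctl range. Matrix level minus biogenesis level was 1.136 to 1.602 in Smad4del mice and 0.938 to 1.241 in Ctl mice, a difference of 0.27 with overlap of the cohorts. These class levels are descriptions of chosen genes and carry no test. The mean log2 level of the 23 cholangiocyte markers differed by 0.17, close to the difference of the biogenesis genes. The 4 membrane proteins had a level of 7.96 to 8.77 in Smad4del mice and 8.19 to 8.71 in Ctl mice.

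**Figure D3:**
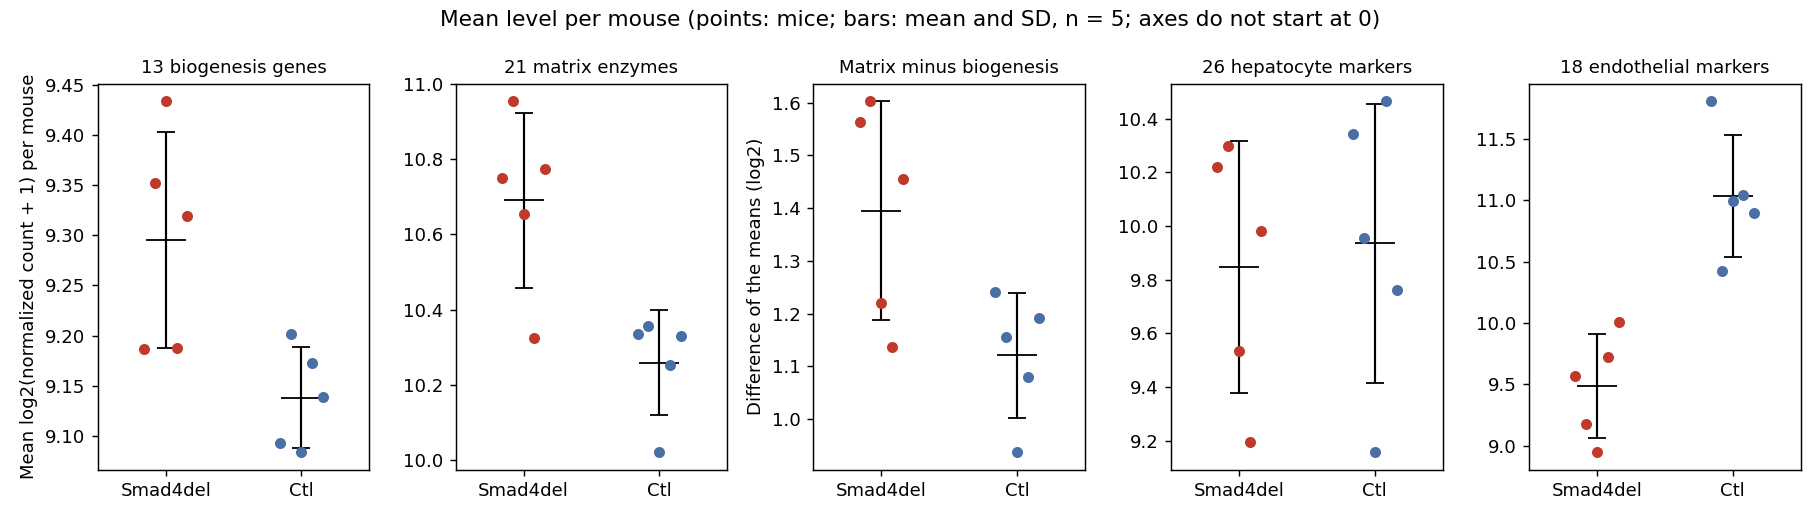
Mean log2(normalized count + 1) per mouse (y axes, which do not start at 0) of 13 biogenesis genes, 21 matrix enzymes, 26 hepatocyte markers and 18 endothelial markers, and the difference of the first pair, with the mean and SD of each cohort (n = 5). The matrix level of Smad4del mouse A5447 (10.3) lies within the Ctl range, hepatocyte levels overlap widely and endothelial levels do not overlap.

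Single mice stood out along the whole class. Smad4del mouse A5447 had the lowest value of its cohort in 17 of the 21 matrix enzymes and 25 of all 38 genes, and A5217 had the highest in 10 and 14. Among Ctl mice, A5221 had the lowest value in 9 of 21 and 14 of 38. A5447 and A5221 also had the lowest hepatocyte marker level of their cohorts (9.20 and 9.16), and both carried Xist RNA (889 and 769 normalized counts), as did Ctl mouse A5628 (823), while the other 7 mice had at most 1.70. Without A5447, 9 members were called higher: Acox2, Acaa1b, Scp2, Decr2, Pecr, Crot, Phyh, Cat and Hao1. Calls over all tested genes rose as well, with 563 higher without A5447 against 362 in the main comparison. With the hepatocyte level, which includes Hamp (log2 fold change -6.42), as a covariate 10 members were called higher (458 of all tested genes). With Xist as a covariate 4 were (407 of all tested genes), Cat in place of Pex11g. A hepatocyte level without Hamp was not tested. The part of these mice in the results beyond these values was not tested.

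The level of endothelial markers differed between the cohorts without overlap, so a fit with it as a covariate can hardly separate it from cohort. Summed normalized counts of these markers were 11255 to 22699 in Smad4del mice and 29730 to 84262 in Ctl mice, and none of the 18 was at 0 in any mouse. With the endothelial level as a covariate limma called 0 of all tested genes in either direction and 0 of the 38 members, of which 0 had an unadjusted p under 0.05. Even Smad4, the deleted gene, lost its call in that fit (limma adjusted p = 0.0755), with a log2 fold change of -1.87 or lower under every alternative. The loss of calls in that fit therefore cannot be read for single genes. The log2 fold changes were then 1.75 for Hao1, 0.40 for Crot, 0.63 for Pex11g, 0.15 for Acox2 and 0.53 for Cat. Summed macrophage markers were at 26434 to 119267 in Smad4del mice and 38692 to 353214 in Ctl mice. Cd14 alone held 20151 to 27133 of these counts in Smad4del mice and 24625 to 37570 in Ctl mice. With the macrophage level as a covariate only Hao1 was called among the members (log2 fold change 2.49, adjusted p = 0.0451). A change of the cholangiocytes and a change in the cells sorted with them cannot be told apart in these covariate fits.

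Per kilobase of merged exon, matrix enzymes were the more abundant class. The median level was 436 normalized counts per kb over the 21 matrix enzymes in Smad4del cells and 408 in Ctl cells, against 122 in Smad4del cells and 140 in Ctl cells over the 13 biogenesis genes, and 158 in Smad4del cells and 179 in Ctl cells over the 4 membrane proteins. The biogenesis medians fall on different genes, Pex11a (122) in Smad4del cells and Pex3 (140) in Ctl cells. They therefore do not give a direction of change, and the median log2 fold change of that class was 0.15. Cat stood first with 3915 per kb in Smad4del cells and 2787 in Ctl cells, followed in Ctl cells by Ech1 and Phyh at 1240 each. Crot had 1740 per kb in Smad4del cells and 961 in Ctl cells. The most abundant Pex gene per kb was Pex2, with 801 in Smad4del cells and 700 in Ctl cells, and the least abundant Pex10, with 39.4 in Smad4del cells and 29.1 in Ctl cells. Hao1 was 37 of 38 in Ctl cells at 18.6 per kb, next to Slc27a2 at 18.4, and reached 114 per kb in Smad4del cells. Exon lengths are those of all GENCODE M21 transcripts merged, which understates the level of genes with long minor isoforms.

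**Figure D4:**
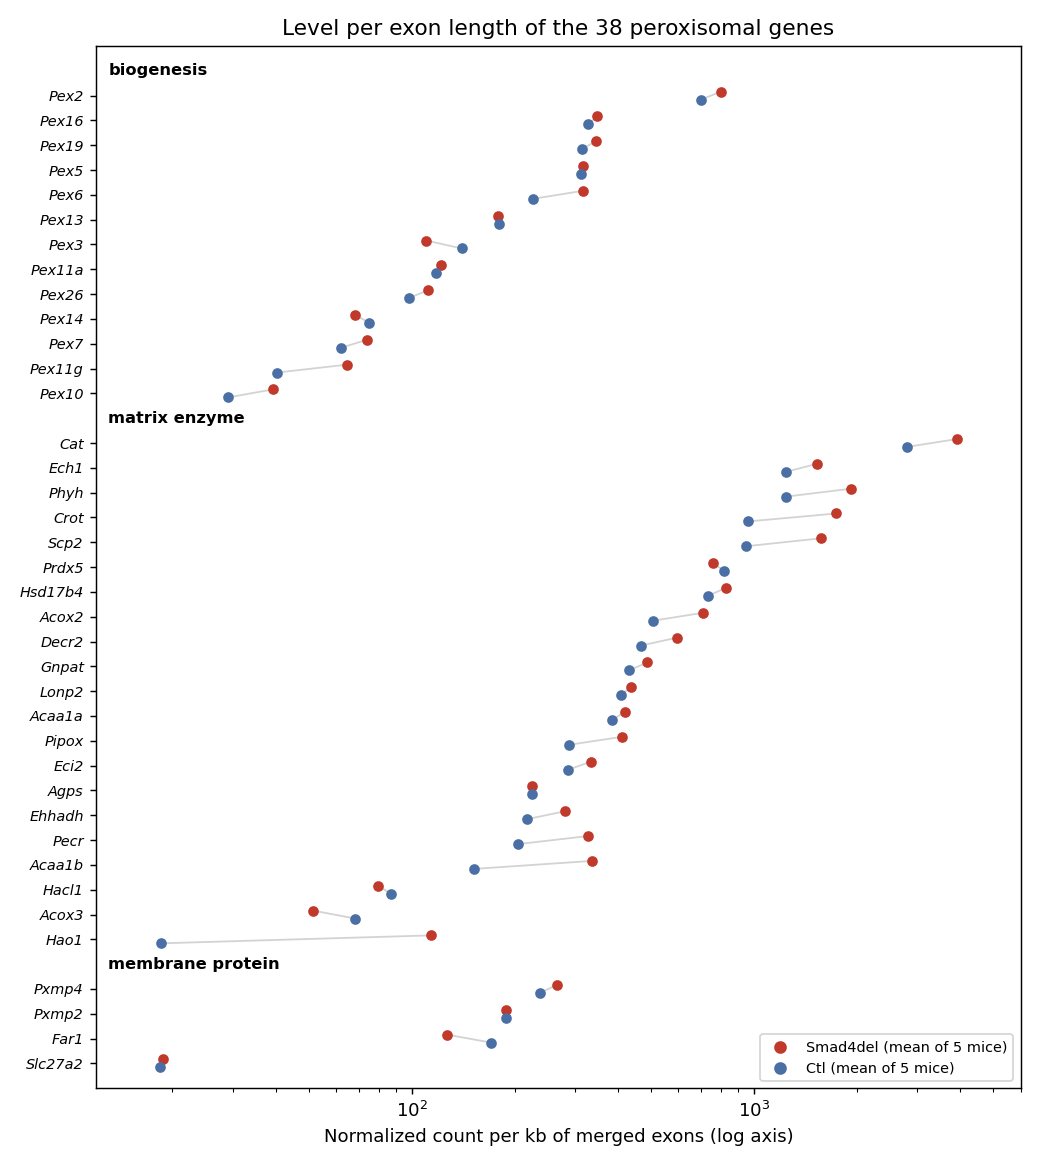
Mean normalized count per kb of merged exon (x axis, log scale) of the 38 genes (y axis), by class and in order of the Ctl level, in Smad4del cells and Ctl cells (mean of 5 mice each). Cat is highest at 3915 in Smad4del cells and 2787 in Ctl cells, and Hao1 shows the widest gap between the cohorts.

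Peroxisomal genes outside the 38 also had a median log2 fold change above 0. Of 60 genes listed, 56 were tested, 38 of them were above 0 and the median was 0.17. Limma called 3 higher (2.43% of all tested genes) and 0 lower (4.69%). Before adjustment, 11 were higher (12.3% of all tested genes) and 4 lower (15.1%) at a limma p under 0.05. Ddo, which encodes D-aspartate oxidase, had 799, 812, 891, 924 and 1116 normalized counts in Smad4del mice against 390, 433, 483, 523 and 624 in Ctl mice, without overlap (log2 fold change 0.90, standard error 0.144, adjusted p = 0.0055). Amacr, the racemase that readies branched chains and bile acid precursors for ACOX2, had 321 to 722 in Smad4del mice and 248 to 314 in Ctl mice, also without overlap (log2 fold change 0.96, adjusted p = 0.0192). Uox, urate oxidase of the hepatocyte peroxisome core in rodents, had 724, 984, 2468, 2830 and 3377 in Smad4del mice against 317, 471, 592, 632 and 1007 in Ctl mice, with overlap (log2 fold change 1.64, adjusted p = 0.0432). A5447 was lowest of its cohort for Amacr and Uox. The next gene by p was Rab8b, a small GTPase (log2 fold change -0.99, adjusted p = 0.0543).

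Most of the PPAR factors and PPARA targets outside the peroxisome had log2 fold changes above 0, and calls were made in both directions. Of 32 genes 29 were tested, and 19 had a log2 fold change above 0 (65.5%, where 49.4% of all tested genes did, median 0.15). Limma called 2 higher (2.43% of all tested genes) and 1 lower (4.69%). Before adjustment, 10 were higher (12.3% of all tested genes) and 1 lower (15.1%) at a limma p under 0.05. Vnn1, a pantetheinase and PPARA target in mouse liver, had 1765, 1769, 1796, 2239 and 2502 normalized counts in Smad4del mice against 658, 917, 1079, 1099 and 1244 in Ctl mice, without overlap (log2 fold change 1.03, standard error 0.169, adjusted p = 0.00616). Acadvl, the very long chain acyl-CoA dehydrogenase of mitochondria, was also higher (0.40, adjusted p = 0.0385). Pdk4, a kinase that restrains pyruvate dehydrogenase and a common PPARA target, was lower, with 210 to 384 in Smad4del mice and 371 to 952 in Ctl mice (log2 fold change -0.91, adjusted p = 0.0462). Fabp1, a fatty acid carrier of hepatocytes, had 259 to 2998 in Smad4del mice and 107 to 568 in Ctl mice (log2 fold change 2.16, adjusted p = 0.0543). The receptor gene Ppara, named after its value was seen, had 57.1, 73.1, 82.1, 90.8 and 115 in Smad4del mice against 23.0, 27.2, 41.6, 43.5 and 79.9 in Ctl mice (log2 fold change 1.04, adjusted p = 0.0953). The lists were chosen with earlier results of these data known, and their counts are descriptions.

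**Figure D5:**
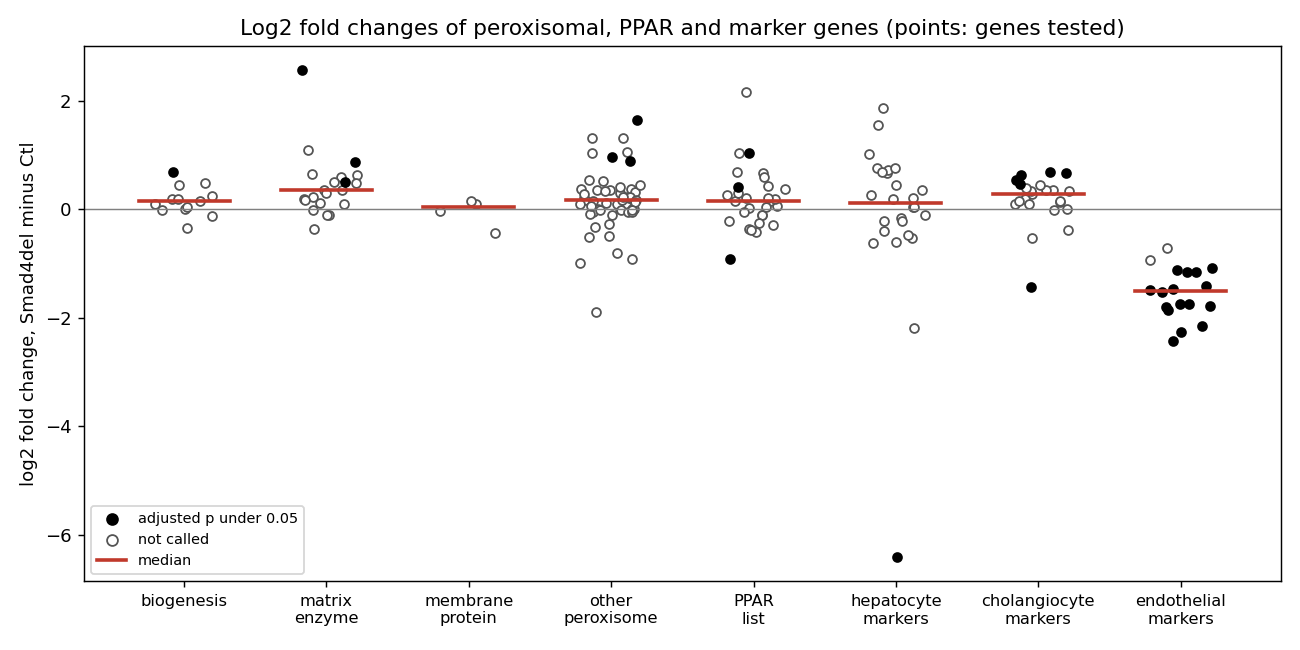
Log2 fold changes (y axis, Smad4del minus Ctl) of the tested genes of 8 lists (x axis), filled where the adjusted p was under 0.05, with red lines at the medians. The median of the matrix enzymes is 0.35 and that of the biogenesis genes 0.15, while hepatocyte markers scatter around a median of 0.12 and 16 of 18 endothelial markers are called lower.

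Promoter windows of 300 bases, 250 before to 50 after the start site, were available for 34 of the 38 genes (39 windows; RefSeq, GRCm38.p6). AGGTCA, a core motif of nuclear receptors such as PPARA, was present on either strand (TGACCT) in 12.8% of these windows and 16.3% of 32851 windows of all genes. The direct repeat AGGTCANAGGTCA, which holds this motif in tandem, was searched on both strands and was in 0 of the 39 windows and in 0.0396% of all. CAGAC, a short element bound by SMAD proteins, was present on either strand (GTCTG) in 59.0% of the members' windows and 49.6% of all. The bases upstream of the start sites of called members are printed 5′ to 3′ on the strand of the gene, with AGGTCA and CAGAC matches on either strand in capitals, to show where those letters stand. All 3 genes lie on the minus strand, and Acox2 is left out because its annotated start sites differ.
Hao1 chr2:134554369-134554602: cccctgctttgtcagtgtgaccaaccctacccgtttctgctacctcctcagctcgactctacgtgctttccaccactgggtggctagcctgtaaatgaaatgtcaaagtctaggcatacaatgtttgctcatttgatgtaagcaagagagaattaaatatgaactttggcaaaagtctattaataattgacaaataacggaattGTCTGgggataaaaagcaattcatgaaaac
Crot chr5:8997325-8997396: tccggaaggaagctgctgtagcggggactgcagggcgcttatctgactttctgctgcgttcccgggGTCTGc
Pex11g chr8:3467681-3467898: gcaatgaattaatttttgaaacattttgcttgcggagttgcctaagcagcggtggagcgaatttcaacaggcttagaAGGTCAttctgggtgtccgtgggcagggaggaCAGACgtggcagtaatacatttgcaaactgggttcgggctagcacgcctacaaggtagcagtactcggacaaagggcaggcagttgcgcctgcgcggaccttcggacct
Of the called members, only Pex11g held an AGGTCA in its window, and each of the 3 printed stretches holds a single CAGAC match. A match is a run of letters and says nothing of binding in these cells.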

How the data were processed

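RNA of EPCAM+/CD45-/TER119-/TO-PRO-3- cells from 5 Smad4del and 5 Ctl mice was amplified with SMART-Seq v4 and read from 1 end on a HiSeq instrument. The deposited signal values are read counts per gene that the authors scaled by a size factor for each mouse. Reads had been trimmed (Trimmomatic 0.36), aligned to GRCm38.p5 (STAR), assigned to genes of GENCODE M12 (featureCounts) and normalized (DESeq2 1.14.1, R 3.3.2). The processing notes of the submitters list mm9 as well. The methods describe counting of unique reads and, separately, with multi-mapping reads, and leave unsaid which gave the deposited values. Gene length is not corrected for, and a few abundant genes can move a size factor.

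Dividing each mouse's values by the smallest of them gave whole numbers throughout (100%, tolerance 1e-06), taken as reads. For mouse A5217 the divisor is 0.998, too near 1 to exclude rounding, so count tests were alternatives only and were also run without it. The main test was limma 3.58.1 (R 4.3.3) on log2(normalized count + 1) of the 14870 genes averaging at least 10, with a trended prior and no term but cohort, and p-values were adjusted over all of these genes (Benjamini-Hochberg, 0.05); a log2 fold change on this scale understates the change of low genes. Exact two-sided permutation tests used the 252 splits of the mice. Of 49568 genes, 22557 were at 0 in every mouse. Chi-square per degree of freedom between any 2 mice was 25.8 or more, so none was counted as a repeat.

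Alternatives were pseudocounts of 0.5 and 10, no filter, a minimum mean of 50, median and quantile scaling, count tests on the reads (DESeq2 1.42.0 and edgeR 4.0.16), covariates (hepatocyte, endothelial and macrophage level, Xist, mouse numbers below 5300) and leaving out each mouse. Scripts were tested on simulated data. Members, pathway lists and marker lists were chosen with earlier results of these data known. Named beside the 38 members are Smad4, called genes of both pathway lists (or the 4 with the smallest p), and leading markers; Hamp, Ttr, Ass1, Tat, Pck1, Cyp7a1, Mup3 and Ppara were named after their values were seen. Coordinates, exon lengths and coding ends are from GENCODE M21 on GRCm38, a later annotation of the same build. Promoter windows are from RefSeq, and Pex2, Pex19, Hsd17b4 and Pxmp2 were not matched there. Coding sequence of Hsd17b4 is not reported here.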

Additional observations from a re-analysis of the deposited data

Results flagged for a closer look

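In each cohort of 5 mice the highest and the lowest value of every member was compared with its neighbour, with a gap above 0.71 of the range taken as far apart. Of 76 such groups 4 stood out, where chance gives about 1 in 20. Pex11a in Ctl mouse A5215 had 296 normalized counts, with the next Ctl mouse at 380. Ehhadh in Ctl mouse A5221 had 529, with the next at 655, and Pecr in the same mouse had 214, with the next at 318. Lonp2 in Ctl mouse A5219 had 2065, with the next at 2189. All 4 were low values of Ctl mice. No value of a Smad4del mouse was that far from the others.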

How the results depend on the processing

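Hao1 was called under 24 of 25 alternatives (log2 fold change 1.75 to 2.88), Crot under 23 (0.40 to 0.98), Acox2 under 20 (0.15 to 0.56) and Pex11g under 10 (0.61 to 0.84), all higher in Smad4del cells. No called value changed sign. Under the settings tried, 0 to 12 uncalled members changed sign, the 12 with the endothelial covariate, where the log2 fold change was 0.43 for Acox3, -0.14 for Pex10 and -0.16 for Ech1 (-0.37, 0.44 and 0.29 in the main comparison). The causes of the differences below were not tested, apart from the fewer mice or genes that a setting itself implies. Counts are given as higher, then lower, where both moved by over 1.5 times, and those not given stayed within that.

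Without a filter, 209 of all genes were higher, with 0 biogenesis genes higher and 1 higher and 0 lower of the PPAR list. A minimum mean of 50 gave 5 matrix enzymes higher and 5 higher and 1 lower of the other peroxisome genes. Median scaling gave 626 of all genes higher and 639 lower (362 and 697 as deposited), 5 matrix enzymes, 7 other peroxisome genes and 4 of the PPAR list higher. Quantile normalization gave 579 of all genes higher and 607 lower, with 5 matrix enzymes and 6 other peroxisome genes higher. They moved the median log2 fold change of all genes to 0.06 and 0.08, and that of the members to 0.25 and 0.24.

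DESeq2 on 10 mice called 893 of all genes higher and 1290 lower, 12 members higher and 1 lower (2 biogenesis genes and 10 matrix enzymes higher), 8 other peroxisome genes higher and 3 lower, and 7 of the PPAR list higher. On 9 mice it called 1 member lower, 0 biogenesis genes higher, 2 other peroxisome genes lower and 4 of the PPAR list higher. EdgeR on 10 mice called 0 biogenesis genes higher and 1 other peroxisome gene lower; on 9 mice it called 89 of all genes higher and 265 lower, 2 members and 0 biogenesis genes higher, 1 other peroxisome gene higher, and 1 higher and 0 lower of the PPAR list.

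The hepatocyte covariate, whose level includes Hamp, gave 10 members and 9 matrix enzymes higher, and 7 other peroxisome genes higher and 1 lower. The endothelial covariate gave 0 calls in every list, among 0 of all genes higher and 0 lower. The macrophage covariate gave 127 of all genes higher and 358 lower, 1 member, 0 biogenesis genes and 1 matrix enzyme higher, 1 other peroxisome gene higher, and 1 higher and 0 lower of the PPAR list. The Xist covariate gave 0 biogenesis genes higher and 1 other peroxisome gene lower.

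Leaving out each mouse in turn gave 105 to 563 of all genes higher and 329 to 852 lower, 2 to 9 members higher and 0 to 1 lower, 0 to 2 biogenesis genes and 2 to 9 matrix enzymes higher, 1 to 6 other peroxisome genes higher and 0 to 2 lower, and 1 to 6 of the PPAR list higher and 0 to 1 lower. The 9 members called without A5447 and the 2 (Crot and Hao1) called without A5217 or A5221 are the extremes, and Far1 was called lower without A5216. No paired analysis was possible because the labels give no litters by which mice could be paired. Counting error limits Hao1 and Slc27a2 most, whose normalized counts fell as low as 16.3 and 26.4.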
